A study of Rattus norvegicus with 14 samples.

Results

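Splicing factors of the SR, hnRNP, RBM, LUC7-like, PRPF and SF3 families were followed in rat hippocampus after a chemically induced seizure, with and without a test compound. Members were the genes whose symbols begin with Srsf or Rbm followed by a digit, or with Hnrnp, Luc7l, Prpf, Sf3a or Sf3b, and that reached 1 FPKM (a fragment count divided by transcript length and library size) in at least 4 of 14 libraries. Of 92 such genes, 83 met this level: 11 of 12 Srsf, 18 of 18 Hnrnp, 30 of 38 Rbm, 3 of 3 Luc7l, 12 of 12 Prpf and 9 of 9 Sf3 genes. They were tested among 12744 genes that met the same level, of 22601 genes listed. The animals were wild-type Wistar rats of 180 to 220 g. They formed 3 groups. There were 4 libraries of control rats given vehicle and 5 of rats with PTZ-induced seizures given vehicle. A further 5 were of rats with PTZ-induced seizures given Q808 (PTZ+Q808). Pentylenetetrazole (PTZ) provokes seizures by antagonism at the GABA-A receptor. The compound Q808 is named by its code alone. The sources used here do not give age, sex, dose or sampling time.

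Introns are removed by the spliceosome, which is built from small nuclear ribonucleoproteins (snRNPs). The U1 snRNP recognises the start of an intron, the U2 snRNP its branch point, and the U4/U6.U5 tri-snRNP then joins to form the catalytic machine. SR proteins mostly bind exons and promote their inclusion, while hnRNP proteins often act against inclusion and also package and transport RNA. Neurons splice a large share of their transcripts alternatively, including those of ion channels, receptors and synaptic adhesion proteins.

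The hippocampal markers, among them Prox1, Wfs1 and Neurod6, were present in every group, with summed levels of 763 to 1098 FPKM in control, 937 to 1119 in PTZ and 861 to 1134 in PTZ+Q808. The FPKM values of a library summed to 383126 to 419358. Absolute depth is unknown, and relative depth estimated from low values ran from 0.874 to 1.06. Some libraries stood apart. Striatal transcripts summed to 322 FPKM in control replicate 2 and were at most 46.7 in any PTZ or PTZ+Q808 library, and pituitary transcripts summed to 676 FPKM in PTZ+Q808 replicate 3. The choroid plexus transcript Ttr was low in 3 libraries, control replicate 3, PTZ replicate 2 and PTZ+Q808 replicate 1, and Y-linked transcripts were present in 8 of the 14, spread over the 3 groups. The labels do not tie each library to an animal, so p-values measure the spread between these libraries.

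The levels of the 83 members spanned a wide range, from a mean of 0.990 FPKM over all libraries for Rbm43 to 258 for Hnrnpa2b1, with a median of 14.9. The 6 members above 100 FPKM were Hnrnpa2b1, which binds and transports mRNA, Hnrnpk (124), a protein of C-rich RNA, Srsf5 (118), Hnrnpl (117), a protein of CA repeats, Prpf19 (115), a ubiquitin ligase of the spliceosome, and Hnrnpa1 (101). A further 30 members had means under 10 FPKM. Among SR protein genes Srsf2 (43.3) and Srsf3 (38.3) stood below Srsf5. The most abundant SF3 genes were Sf3b2 (63.0) and Sf3b5 (61.8), and Prpf8, the protein at the centre of the U5 snRNP, had a mean of 47.9 FPKM. Luc7l3 (14.5) and Luc7l (11.2) exceeded Luc7l2 (4.80).

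**Figure D1:**
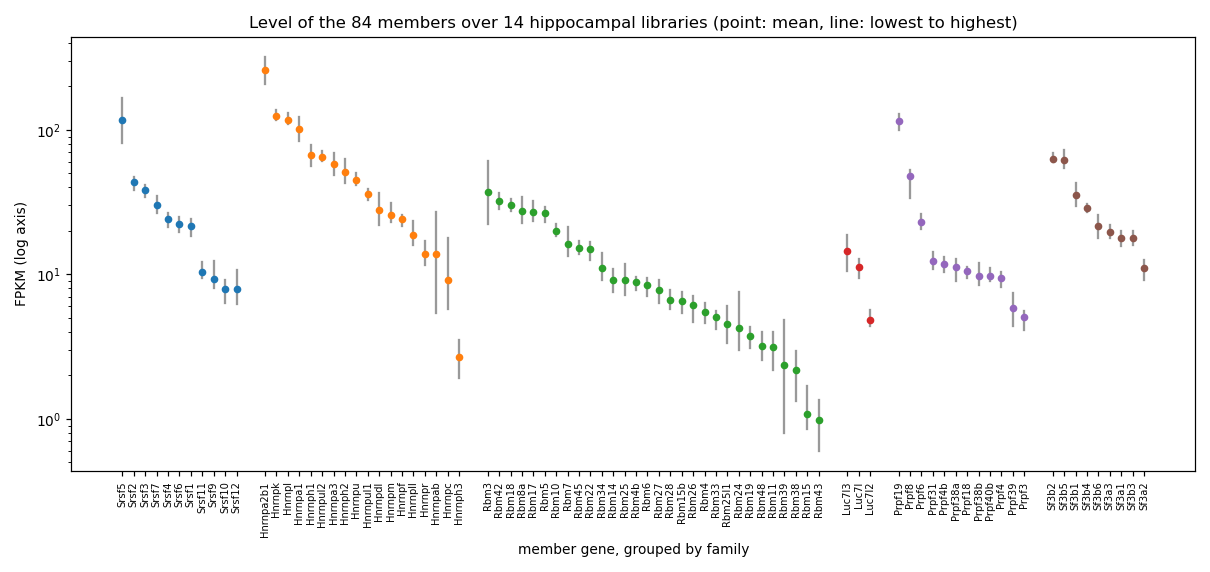
Levels of the members by family: each point is the mean FPKM of 1 gene over 14 libraries on a log axis, grouped by the 6 families. The means run from 0.990 FPKM for Rbm43 to 258 FPKM for Hnrnpa2b1. The 83 members are plotted, and the count of members printed in the figure's title is wrong.

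Close to the level that chose the members, Rbm43 reached 1 FPKM in 6 libraries (median 0.987 FPKM), Rbm15 in 7 (median 1.03) and Rbm39 in 13 (median 1.94). Just outside it, Rbm47 reached 1 FPKM in 2 libraries (median 0.524), and Rbm41 (0.453) and Rbm46 (0.291) in 0. Variation within groups differed between members and was not set against that of all genes tested. The coefficient of variation within groups had a median of 7.81% and was lowest for Sf3b2 and Hnrnpul2 (3.46% each). It was highest for Hnrnpab and Rbm39 (43.9% each) and Hnrnpc (41.2%). Annotation was also shared, but several family names themselves denote splicing, so it is not independent of the rule. A gene ontology term on splicing was attached to 62 of the 83 members, against 337 of all 12744 tested genes. The spliceosome pathway listed 39 of the 83, against 124 of the 12744. The Srsf, Luc7l, Prpf and Sf3 members all carried such a term, as did 12 of 18 Hnrnp members and 15 of 30 Rbm members, a family defined by an RNA-binding domain rather than by splicing.

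Levels were compared between groups on the log2(FPKM + 1) scale with limma, all 3 groups fitted together, and a member counted as called where its p, adjusted by Benjamini and Hochberg's method over all 12744 genes, was under 0.05. In PTZ against control, 0 of 83 members were called, beside 0.0314% of all genes tested. The smallest adjusted p of a member was 0.466, and 9 members had an unadjusted p under 0.05 (7 higher, 2 lower), or 10.8% beside 8.11% of all genes. In PTZ+Q808 against PTZ, 0 of 83 members were called by limma, beside 0% of all genes, and 10 had an unadjusted p under 0.05 (7 higher, 3 lower), or 12% beside 6.14%. The comparison of PTZ+Q808 with control held the calls: 7 members rose and 0 fell, or 8.43% of the members beside 2.87% of all genes (1.94% higher and 0.934% lower). An unadjusted p under 0.05 was reached there by 33 members, 21 higher and 12 lower, or 39.8% beside 20.7%. PTZ+Q808 differs from control in both PTZ and Q808, and the comparison does not separate them.

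Differences were small. Across the members the median log2 change was 0.03 in PTZ against control, 0.01 in PTZ+Q808 against PTZ and 0.05 in PTZ+Q808 against control, where the medians over all genes tested were -0.01, -0.00 and -0.02. Positive changes were found in 51 of 83 members in PTZ against control (61.4%, beside 46.3% of all genes), in 47 in PTZ+Q808 against PTZ (56.6%, beside 48.3%) and in 46 in PTZ+Q808 against control (55.4%, beside 44.7%). In the last of these the share was 14 of 18 for Hnrnp, 8 of 11 for Srsf, 16 of 30 for Rbm, 2 of 3 for Luc7l, 3 of 12 for Prpf and 3 of 9 for Sf3. Family medians in this comparison were 0.13 for Hnrnp, 0.09 for Srsf, 0.08 for Luc7l, 0.02 for Rbm and -0.04 for both Prpf and Sf3. The families were not tested against each other.

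**Figure D2:**
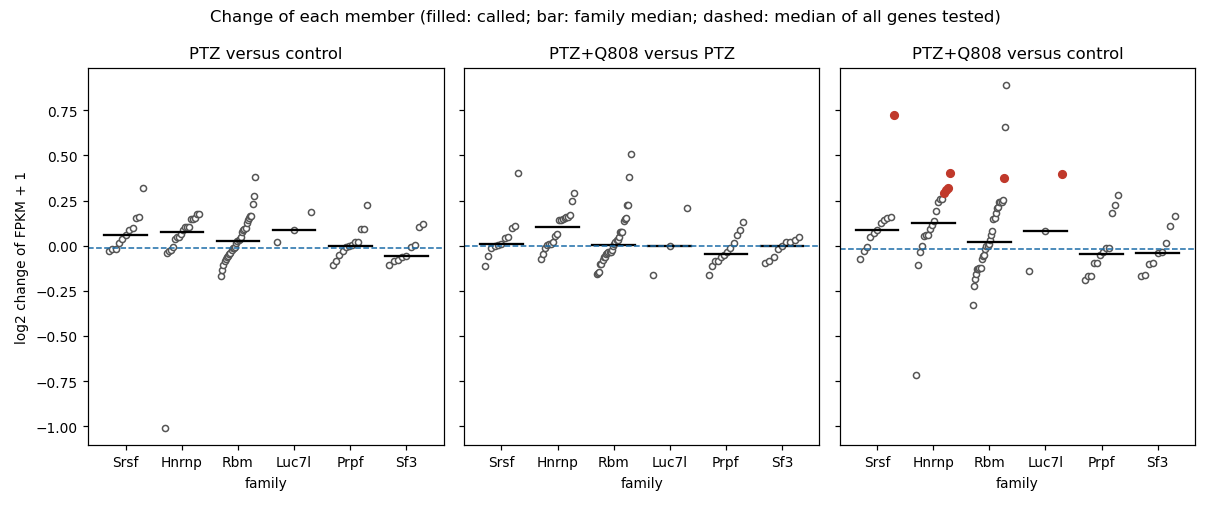
Log2 change of every member in the 3 comparisons, by family, with called members marked. The 7 called members all lie above 0 in PTZ+Q808 against control, and the other 2 comparisons have 0 called members.

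Srsf5 (gene identifier 29667) was the member with the smallest p in PTZ+Q808 against control. It encodes an SR protein (SRp40) that binds exonic enhancers. Its levels were 85.6, 92.4, 94.6 and 81.2 FPKM in the control libraries, 105, 124, 108, 97.5 and 120.1 in PTZ, and 142, 165, 155, 115 and 161 in PTZ+Q808. Every PTZ library and every PTZ+Q808 library was higher than every control library, while PTZ+Q808 replicate 4 lay inside the PTZ range. Means were 88.5 ± 6.15 FPKM (SD, n = 4), 111 ± 11 (n = 5) and 148 ± 20.4 (n = 5). Srsf5 rose by 0.72 ± 0.101 (SE) on the log2 scale in PTZ+Q808 against control, or 1.65-fold on the scale of FPKM + 1 (limma adjusted p = 0.00823). The difference of PTZ from control was 0.32 ± 0.101 (adjusted p = 0.466) and that of PTZ+Q808 from PTZ 0.40 ± 0.0954 (adjusted p = 0.76), neither of them past the threshold. The call in PTZ+Q808 against control held when each of the 14 libraries was left out in turn (adjusted p = 0.00171 to 0.0466). It ended without the 3 libraries low in Ttr (log2 change 0.77, adjusted p = 0.0929), where 0 of all genes tested were called. Among libraries with Y-linked transcripts (2 control, 3 PTZ+Q808) the log2 difference of Srsf5 was 0.64, and among those without (2 of each) it was 0.84, with no test in such small subsets.

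The 10 other Srsf members were not called in any comparison. Srsf6, a further SR protein of exonic enhancers, had the next smallest p in PTZ+Q808 against control, with 21.1 ± 1.38 FPKM in control and 23.6 ± 1.43 in PTZ+Q808 (log2 change 0.16, adjusted p = 0.141). Srsf7 was the other Srsf member whose PTZ+Q808 libraries all exceeded the control libraries. Srsf10, which represses splicing when dephosphorylated, was next to Srsf5 by p in PTZ against control (log2 difference 0.15, adjusted p = 0.671), and Srsf11, an SR-like protein of neuronal microexons, in PTZ+Q808 against PTZ (0.11, adjusted p = 0.828).

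The hnRNP family held 4 of the 7 called members: Hnrnpdl, Hnrnpa1, Hnrnpa3 and Hnrnph2. These were 4 of its 18 members, beside 2.87% of all genes called in PTZ+Q808 against control. Hnrnpa1 (29578) encodes a silencer-binding protein that also shuttles between nucleus and cytoplasm. Its levels were 93.8, 88.6, 89.0 and 84 FPKM in control, 101, 103, 84.1, 107 and 108 in PTZ, and 109, 122, 108, 101 and 116 in PTZ+Q808. All PTZ+Q808 libraries exceeded all control libraries, and PTZ replicate 3 alone of the PTZ libraries lay within the control range. Hnrnpa1 rose by 0.32 ± 0.074 on the log2 scale from control (88.9 ± 4.00 FPKM, SD) to PTZ+Q808 (111 ± 8.04), with a limma adjusted p of 0.037.

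Hnrnpa3 (362152), a close relative of Hnrnpa1, was at 51.1, 56.3, 49.1 and 50.4 FPKM in control, at 56.2, 59.1, 50.5, 62.8 and 59.0 in PTZ, and at 64.3, 66.7, 61.5, 56.7 and 68.9 in PTZ+Q808. The lowest PTZ+Q808 library, replicate 4, was just above the highest control library, replicate 2. Hnrnpa3 rose by 0.29 ± 0.0698 (adjusted p = 0.041). Hnrnph2 (308650), which binds runs of G, was at 43.4, 45.8, 46.2 and 45.3 FPKM in control, at 48.4, 50.6, 43.1, 55.1 and 54.4 in PTZ, and at 53.6, 63.3, 55.0, 50.5 and 59.4 in PTZ+Q808. PTZ replicate 3 was again the only PTZ library not above the controls, and PTZ+Q808 was apart from control. Hnrnph2 rose by 0.31 ± 0.0758 (adjusted p = 0.0451).

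Hnrnpdl (305178), an RNA-binding protein with splicing and mRNA-export roles, was at 21.9, 24.7, 26.7 and 22.9 FPKM in control, at 24.9, 27.0, 26.5, 28.5 and 27.1 in PTZ, and at 31.9, 34.6, 31.2, 26.6 and 36.8 in PTZ+Q808. PTZ+Q808 replicate 4 lay just below control replicate 3, so these groups overlapped by 1 library each. Hnrnpdl rose by 0.40 ± 0.083 (adjusted p = 0.0272), a 1.32-fold change. Hnrnpa1 and Hnrnpa3 have processed copies, and Hnrnph2 is very similar to Hnrnph1, so reads may have been shared between copies in the authors' counting. Their values are uncertain to that extent. Hnrnph1 itself had a log2 difference of 0.24 ± 0.0708 (60.9 ± 3.60 FPKM in control, 72.4 ± 6.12 in PTZ+Q808, adjusted p = 0.0743).

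None of the 14 other hnRNP members passed limma's threshold in PTZ+Q808 against control. There, 8 of the 18 hnRNP members had an unadjusted p under 0.05, beside 20.7% of all genes. Hnrnpa2b1, the most abundant member, was at 245, 247, 231 and 218 FPKM in control, at 243, 256, 208, 289 and 263 in PTZ, and at 262, 320.0, 265, 262 and 304 in PTZ+Q808. The PTZ+Q808 libraries all exceeded the control libraries, while PTZ ranged across both. The log2 difference of PTZ+Q808 from control was 0.26 ± 0.0896 (adjusted p = 0.121). Hnrnpab went the other way with a wide spread, at 14.1, 27.0, 27.1 and 14.2 FPKM in control, 9.13, 9.13, 5.40, 19.3 and 7.49 in PTZ and 20.2, 9.69, 8.5, 8.88 and 13.7 in PTZ+Q808. Its groups overlapped in every comparison, and the difference of PTZ from control, -1.01 ± 0.323 on the log2 scale, was not past the threshold (adjusted p = 0.468). Hnrnpul2, a nuclear matrix protein of the SAF-A type, was the member other than Srsf5 whose PTZ libraries (67.2 ± 2.39 FPKM) all exceeded the control libraries (62.4 ± 1.44), with a log2 difference of 0.11 and an adjusted p of 0.583. Members without overlap in PTZ against control were thus 2 of 83, or 2.41%, both higher, beside 3.03% of all genes (1.44% higher and 1.59% lower). Hnrnpm, a regulator at GU-rich introns, had a log2 difference of 0.16 between PTZ+Q808 and PTZ (adjusted p = 0.76).

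Of 30 Rbm members, 1 was called in PTZ+Q808 against control, close to the share of all genes called there (2.87%). Rbm25l1 (497865) is named for its likeness to Rbm25, a U1-associated regulator of 5′ splice site choice, and the authors' counting could have split reads between the pair. It was at 3.33, 4.50, 3.44 and 3.75 FPKM in control, at 4.44, 5.18, 4.38, 4.30 and 4.51 in PTZ, and at 4.96, 6.07, 5.14, 4.56 and 5.10 in PTZ+Q808. Control replicate 2 reached into the PTZ range and PTZ+Q808 replicate 4 was just above it, so PTZ+Q808 and control did not overlap. Rbm25l1 rose by 0.38 ± 0.0868 (adjusted p = 0.037). Rbm25 had a log2 difference of 0.25 ± 0.0903 in the same comparison (adjusted p = 0.132).

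Rbm3 (114488), a cold-inducible RNA-binding protein, had a larger difference but missed the threshold. It was at 26.9, 22.4, 33.4 and 31.4 FPKM in control, at 31.0, 36.3, 36.2, 32.3 and 36.8 in PTZ, and at 47.0, 61.1, 47.0, 27.6 and 50.3 in PTZ+Q808. Of the PTZ+Q808 libraries 4 were above every other library, and replicate 4 was at the control level. The log2 difference of PTZ+Q808 from control was 0.66 ± 0.174 (adjusted p = 0.0553), and the adjusted p was 0.00883 without PTZ+Q808 replicate 4 and 0.0629 to 0.131 without any other single library. Rbm39, a U2AF-related coactivator of splicing, was at 1.57, 1.98, 1.01 and 0.798 FPKM in control, 1.89, 1.45, 1.05, 2.38 and 3.87 in PTZ and 4.42, 3.42, 4.86, 3.16 and 1.39 in PTZ+Q808. PTZ+Q808 replicate 5 lay among the controls and the other PTZ+Q808 libraries above them. Its log2 difference of 0.89 ± 0.273, the highest of any member in this comparison, was not called (adjusted p = 0.0861).

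Other Rbm members with an adjusted p near the threshold were Rbm6, a regulator of exon skipping (log2 difference 0.21, adjusted p = 0.0745), and Rbm26 (0.24, adjusted p = 0.0798), a protein tied to nuclear RNA decay. In both the PTZ+Q808 and control libraries did not overlap. Rbm15b, an adaptor of the m6A RNA methylation complex, was lower in PTZ+Q808 than in PTZ by 0.15 on the log2 scale (6.71 ± 0.482 and 5.95 ± 0.653 FPKM, log2 difference -0.15, adjusted p = 0.801). In PTZ against control Rbm25l1 and Rbm26 had log2 differences of 0.23 (adjusted p = 0.551) and 0.17 (adjusted p = 0.594).

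Of the 3 Luc7l members, 1 was called in PTZ+Q808 against control, beside 2.87% of all genes. Luc7l3 (360602) belongs to the mammalian relatives of the yeast U1 protein Luc7, which influence 5′ splice site choice. It was at 10.5, 14.2, 12.3 and 12.3 FPKM in control, at 12.5, 16.4, 12.9, 14.7 and 14.4 in PTZ, and at 15.5, 18.6, 17.4, 13.9 and 17.3 in PTZ+Q808. Control replicate 2 exceeded PTZ+Q808 replicate 4, so the groups overlapped by these 2 libraries. Luc7l3 rose by 0.40 ± 0.0983 (adjusted p = 0.0463), the call nearest the threshold. Luc7l did not follow: its 5 PTZ+Q808 libraries, at 10.3, 9.42, 10.9, 10.9 and 10.6 FPKM, were all lower than its PTZ libraries, at 11.9, 11.2, 11.3, 12.5 and 11.9, with a log2 difference of -0.16 ± 0.0565 (adjusted p = 0.76). Luc7l2 was at 4.55 ± 0.135 FPKM in control, 4.91 ± 0.437 in PTZ and 4.90 ± 0.472 in PTZ+Q808 and was not called in any comparison.

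Prpf40b, a U1-associated protein, was at 10.5 ± 0.694 FPKM in control and 9.23 ± 0.198 in PTZ+Q808 (log2 difference -0.17, adjusted p = 0.0898). Its PTZ+Q808 libraries were all lower than its control libraries. Prpf39, a further U1-associated protein, had a log2 difference of 0.22 in PTZ against control (adjusted p = 0.597).

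The other Prpf members belong mostly to the tri-snRNP and the catalytic complex. None of the 12 Prpf members was called by limma in any comparison. In PTZ+Q808 against control 6 had an unadjusted p under 0.05, 3 higher and 3 lower, beside 20.7% of all genes. Prpf6 (366276), a bridge between U5 and U4/U6, was at 23.8, 23.3, 26.0 and 25.1 FPKM in control, at 25.2, 25.3, 22.2, 23.1 and 24.3 in PTZ, and at 20.7, 20.6, 21.3, 22.1 and 22.1 in PTZ+Q808. The PTZ+Q808 libraries were all lower than every control and PTZ library. The log2 differences were -0.19 ± 0.0519 from control (adjusted p = 0.0611) and -0.16 ± 0.049 from PTZ (adjusted p = 0.76). Prpf6 and Luc7l were the 2 members (2.41%) without overlap between PTZ+Q808 and PTZ, both lower, beside 0.777% of all genes (0.447% higher and 0.33% lower). Prpf4, a U4/U6 protein, had 9.81 to 10.3 FPKM in control and 8.44 to 9.47 in PTZ+Q808 (log2 difference -0.17, adjusted p = 0.141, no overlap). Prpf38a, which joins the complex at activation, was at 10.3 ± 0.904 and 12.2 ± 0.592 FPKM (0.23, adjusted p = 0.135, no overlap). Prpf19, the most abundant Prpf member, had means of 116 ± 11.9, 116 ± 3.16 and 112 ± 5.03 FPKM in control, PTZ and PTZ+Q808.

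None of the 9 SF3 members, subunits of the U2 snRNP that hold the branch point, was called by limma in any comparison. In PTZ+Q808 against control 3 had an unadjusted p under 0.05, all lower, beside 20.7% of all genes in either direction. These were Sf3a1 (19.0 ± 1.03 to 16.9 ± 0.925 FPKM, log2 difference -0.16, adjusted p = 0.134), Sf3a2 (-0.17, adjusted p = 0.22) and Sf3b4 (30.0 ± 0.907 to 27.9 ± 0.530 FPKM, -0.10, adjusted p = 0.224). Sf3b4 alone had no overlap. Sf3b2, the most abundant, had means of 62.9 ± 1.08, 62.6 ± 1.18 and 63.6 ± 3.45 FPKM in control, PTZ and PTZ+Q808, with log2 differences between -0.01 and 0.02.

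**Figure D3:**
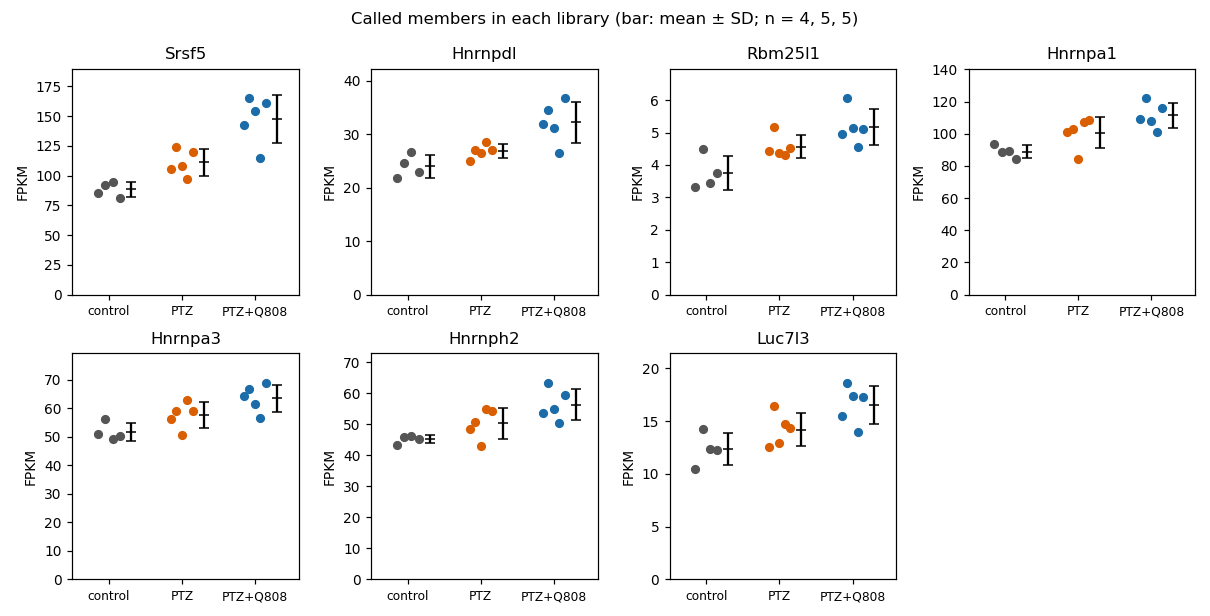
FPKM of the 7 called members in each of the 14 libraries: points are libraries, and bars give the mean and SD of control (n = 4), PTZ (n = 5) and PTZ+Q808 (n = 5). PTZ means lie between the control and PTZ+Q808 means for all 7, and Hnrnpdl and Luc7l3 overlap between control and PTZ+Q808.

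In all, 17 members did not overlap between PTZ+Q808 and control, 13 higher and 4 lower, or 20.5% beside 8.91% of all genes (4.75% higher and 4.17% lower). They included 5 of the 7 called members and 12 that were not called. Besides those named above, they were Rbm34, Hnrnpk and Hnrnpr, all higher. Means ran in ascending order from control through PTZ to PTZ+Q808 for 33 members, in descending order for 20 and in neither for 30. These orders were not counted over all genes tested and cannot be read as particular to the members. All 7 called members had the ascending order. The 3 comparisons share libraries, so this order is not independent of the calls.

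Within PTZ+Q808 the 7 called members shared their lowest library. Replicate 4 was the lowest of its group for 7 of 7, and replicate 2 was the highest for 5 of 7. Control and PTZ showed no such single library: in control the lowest was replicate 1 for 4, replicate 4 for 2 and replicate 3 for 1, and in PTZ it was replicate 3 for 3 and replicates 1 and 4 for 2 each. How often each library was the lowest or highest over all genes tested was not counted. The 7 were chosen by calls that rest on these same libraries. Expressed as the median of the called members, each centred on its mean over 14 libraries, PTZ+Q808 replicate 4 stood at -0.0064 on the log2 scale against 0.12 to 0.32 in the other PTZ+Q808 libraries. PTZ libraries stood at -0.14 to 0.04 and control libraries at -0.33 to -0.14. The same median over all 83 members ran from -0.05 to -0.01 in control, -0.06 to 0.03 in PTZ and -0.01 to 0.08 in PTZ+Q808, so the groups met. The heat map of members by library shows this.

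**Figure D4:**
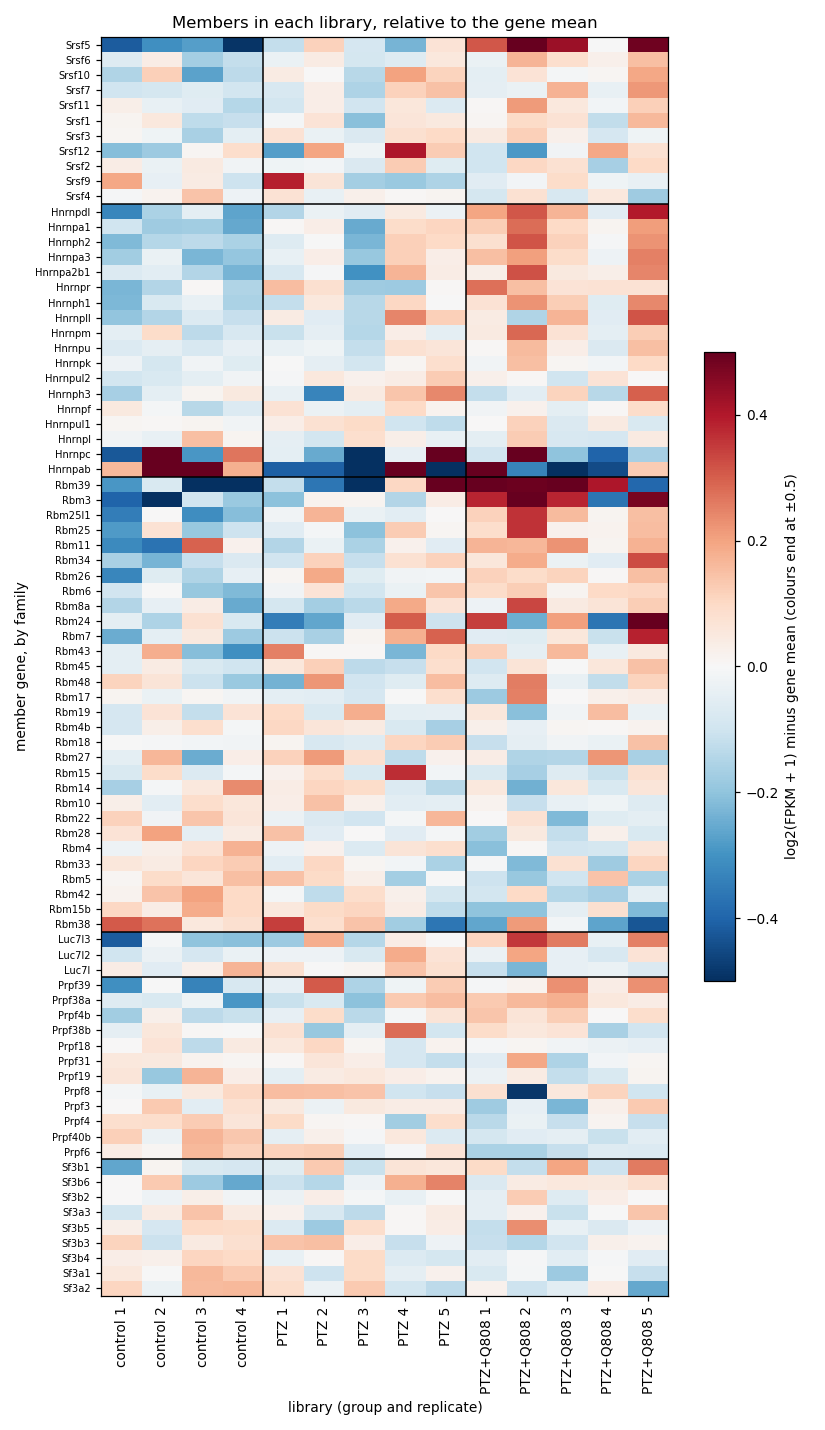
Member levels by library as log2(FPKM + 1) centred on each gene's mean: rows are genes, columns the 14 libraries in their 3 groups, and colour the difference from the mean. PTZ+Q808 replicate 4 is the palest of its group in the called members, and control replicate 1 is among the lowest.

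Markers of other cell types were measured beside these values. Oligodendrocyte markers (Mbp and Mog) summed to 1795 to 3536 FPKM in control, 1804 to 2544 in PTZ and 1173 to 2385 in PTZ+Q808. Meningeal markers (5 of 5 measured) summed to 49.9 to 66.4, 53.3 to 169 and 49.5 to 129 FPKM, and choroid plexus markers to 56.6 to 7217, 117 to 5399 and 335 to 6922, with Otx2 of that list under the level for testing. Astrocyte markers summed to 482 to 649, 442 to 620 and 447 to 634 FPKM, and microglial markers to 73.1 to 98.8, 71.3 to 85.4 and 70.4 to 99.0. Blood markers summed to 831 to 2757, 757 to 2412 and 537 to 3409. Each list's summed level overlapped between all groups. In PTZ+Q808 against control 5 of 5 meningeal markers had positive log2 differences (median 0.72, and 0.50 in PTZ against control), 2 of 2 oligodendrocyte markers negative ones (median -0.42) and 3 of 3 blood markers positive ones (median 0.16). The part of these lists in the member values was not tested. In bulk tissue, fewer cells of a type and less RNA per cell cannot be told apart.

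RefSeq (rat build GRCr8) gave the 250 bases before the annotated start for 78 of 83 members, matched by gene identifier. The build of the deposited values was not stated, so these sequences describe the genes and not the reads. The promoters of all 7 called members are shown. Capitals mark the box CCAAT, the core of the cAMP response element (TGACGT) and the core bound by ETS factors (CCGGAAG), on either strand. A box on the reverse strand reads ATTGG, and a reverse ETS core reads CTTCCGG. The coordinates are chr6:106336506-106336755 for Srsf5, chr14:9861466-9861715 for Hnrnpdl, chr7:136253868-136254117 for Hnrnpa1, chr3:80985684-80985933 for Hnrnpa3, chrX:102073999-102074248 for Hnrnph2, chr10:10773244-10773493 for Rbm25l1 and chr10:79773430-79773679 for Luc7l3. Luc7l3 lies on the minus strand and the other 6 on the plus strand.
Srsf5: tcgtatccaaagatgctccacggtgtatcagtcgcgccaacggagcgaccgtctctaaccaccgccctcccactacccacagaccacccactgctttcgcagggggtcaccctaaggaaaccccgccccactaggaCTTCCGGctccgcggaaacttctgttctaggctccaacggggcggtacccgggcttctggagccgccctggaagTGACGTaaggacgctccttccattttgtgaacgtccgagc
Hnrnpdl: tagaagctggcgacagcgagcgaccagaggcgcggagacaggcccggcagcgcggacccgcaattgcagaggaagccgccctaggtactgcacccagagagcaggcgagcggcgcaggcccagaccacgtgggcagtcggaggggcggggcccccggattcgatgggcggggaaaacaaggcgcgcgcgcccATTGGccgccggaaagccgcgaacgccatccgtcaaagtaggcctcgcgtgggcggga
Hnrnpa1: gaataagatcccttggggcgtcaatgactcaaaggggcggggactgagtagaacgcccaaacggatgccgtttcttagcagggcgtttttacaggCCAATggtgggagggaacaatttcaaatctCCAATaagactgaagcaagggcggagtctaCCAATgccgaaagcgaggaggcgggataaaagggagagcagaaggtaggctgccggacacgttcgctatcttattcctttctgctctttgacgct
Hnrnpa3: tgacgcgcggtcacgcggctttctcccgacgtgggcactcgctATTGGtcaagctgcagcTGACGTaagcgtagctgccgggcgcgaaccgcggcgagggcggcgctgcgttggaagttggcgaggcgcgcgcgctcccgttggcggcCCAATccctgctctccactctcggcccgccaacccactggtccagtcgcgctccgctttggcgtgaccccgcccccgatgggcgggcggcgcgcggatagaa
Hnrnph2: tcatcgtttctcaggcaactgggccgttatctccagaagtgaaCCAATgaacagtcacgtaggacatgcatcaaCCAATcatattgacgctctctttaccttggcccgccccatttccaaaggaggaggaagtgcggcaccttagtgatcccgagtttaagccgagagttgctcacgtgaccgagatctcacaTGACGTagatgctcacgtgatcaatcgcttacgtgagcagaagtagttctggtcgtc
Rbm25l1: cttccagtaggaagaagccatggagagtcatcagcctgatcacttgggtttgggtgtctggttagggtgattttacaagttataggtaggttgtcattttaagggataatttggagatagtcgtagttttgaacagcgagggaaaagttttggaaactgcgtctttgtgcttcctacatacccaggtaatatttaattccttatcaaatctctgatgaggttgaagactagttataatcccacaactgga
Luc7l3: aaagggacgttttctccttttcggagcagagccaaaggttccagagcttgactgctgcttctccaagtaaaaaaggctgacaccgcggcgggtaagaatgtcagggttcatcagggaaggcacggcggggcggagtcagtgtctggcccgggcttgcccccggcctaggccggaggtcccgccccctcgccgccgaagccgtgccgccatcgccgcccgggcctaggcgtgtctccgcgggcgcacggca
In Hnrnpa1 CCAAT occurred at positions -155, -125 and -95 from the start, and the unmarked AP-1 letters TGAGTCA on the reverse strand at -226. In Hnrnph2 CCAAT occurred at -207 and -176, with TGACGT at -57, and in Hnrnpdl on the reverse strand at -58. In Hnrnpa3 TGACGT lay at -190 between CCAAT matches at -207 and -102, and in Srsf5 at -40 with an ETS core at -114. Rbm25l1 and Luc7l3 held none of the 3 marked motifs.

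Over all 78 member promoters CCAAT was present in 37 (47.4%), against 34.3% of all 27457 promoters of the same length. TGACGT was present in 15 (19.2% against 7.25%) and the full element TGACGTCA, which contains it, in 1 (1.28% against 1.70%). The ETS core was present in 16 (20.5% against 7.74%) and the SP1 box GGGCGG in 41 (52.6% against 32.4%). TATAAA was present in 5 (6.41% against 13.1%), TGAGTCA, the AP-1 site of Fos and Jun, in 2 (2.56% against 3.98%) and a serum response element in 0 (against 0.0364%). GC content had a median of 59.6% in member promoters and 52.0% in all promoters, which bears on GC-rich motifs such as GGGCGG and CCGGAAG. The members had met the level for testing, but the set of all promoters was not limited to genes that did. The shares therefore cannot be read as particular to splicing factors. Matches are letters found in a window on both strands, not sites shown to be bound, and the shares were not tested.

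Splicing genes outside these families were taken from 12 lists, 145 genes tested in all. In PTZ against control and in PTZ+Q808 against PTZ 0 of them were called by limma, and 9 (6.21%, beside 8.11% of all genes) and 13 (8.97%, beside 6.14%) had an unadjusted p under 0.05. In PTZ+Q808 against control 7 rose and 1 fell, or 5.52% beside 2.87% of all genes, with a median log2 change of 0.02, and 40 (27.6%, beside 20.7%) had an unadjusted p under 0.05, 30 higher and 10 lower. Bclaf1, an SR-related protein, was at 13.9, 14.7, 14 and 14.2 FPKM in control, 16.0, 19.1, 15.6, 18.6 and 19.0 in PTZ and 19.5, 19.8, 20.4, 19.3 and 21.1 in PTZ+Q808. The 3 groups did not overlap with each other. Bclaf1 rose by 0.47 ± 0.0638 (adjusted p = 0.00823). Matr3, an hnRNP-like nuclear matrix protein that represses exons, rose from 33.3 ± 1.10 to 50.6 ± 3.76 FPKM (log2 change 0.59, adjusted p = 0.0142, and 0.0586 without control replicate 1).

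Of 12 tested genes on the list of U2 snRNP and branch point factors, 3 were called, beside 2.87% of all genes. U2surp rose by 0.31 (adjusted p = 0.031), the helicase gene Ddx46, needed for U2 to join the branch point, by 0.19 (adjusted p = 0.0422), and Zrsr2, which recognises the end of minor introns, by 0.30 (adjusted p = 0.0226). Celf4, a neuronal RNA-binding regulator, rose from 79.9 ± 3.80 to 103 ± 6.33 FPKM (0.36, adjusted p = 0.0226), and Upf3b, of the exon junction complex and nonsense-mediated decay, rose by 0.42 (adjusted p = 0.0322). The SR-related gene Rsrp1 fell by 0.58 ± 0.13 (76.1 ± 11 to 50.4 ± 6.86 FPKM, adjusted p = 0.0331). Each of these 6 lost its call without control replicate 1, 3 or 4 or without PTZ+Q808 replicate 1 or 5, for instance without control replicate 1 (adjusted p = 0.0951 for U2surp, 0.121 for Ddx46, 0.0718 for Zrsr2, 0.0717 for Celf4, 0.10 for Upf3b and 0.0717 for Rsrp1). The lists of U1 snRNP proteins (3 tested), Sm and LSm ring proteins (14), U5 and tri-snRNP proteins (11), catalytic step factors (16), and SR kinases and phosphatases (9) held 0 called genes. Among the kinases Srpk2, which phosphorylates SR proteins, had a log2 difference of 0.13 (20.1 ± 0.954 to 22.0 ± 0.628 FPKM, adjusted p = 0.132).

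The number of called members depended on single libraries. In PTZ+Q808 against control the 7 calls became 1 without control replicate 1, 2 without control replicate 3, 1 without control replicate 4, 1 without PTZ+Q808 replicate 1, 2 without replicate 2, 1 without replicate 3 and 1 without replicate 5 of that group, and 10 without PTZ+Q808 replicate 4. It was 1 without both libraries that held striatal or pituitary transcripts, a setting chosen after the data had been seen, and 0 without the 3 libraries low in Ttr. Apart from the fit without the libraries low in Ttr, the share of all genes called in each fit is not given here. These counts therefore cannot be read as particular to the members. Log2 changes moved little. Those of Hnrnpdl ranged from 0.35 to 0.47 over 27 alternatives and those of Hnrnpa1 from 0.29 to 0.35, while adjusted p-values crossed the threshold. With each library left out in turn, Hnrnpdl was called in 9 of 14 fits (adjusted p = 0.0106 to 0.0905), Rbm25l1 in 7, Hnrnpa1 in 6, Hnrnpa3 and Luc7l3 in 5 each and Hnrnph2 in 4. Fits without a PTZ library left these log2 changes as they were, since neither compared group lost a library. Of the other fits, Hnrnpa1 and Hnrnph2 kept their calls only without PTZ+Q808 replicate 4. Rbm25l1, Hnrnpa3 and Luc7l3 kept theirs only there or without control replicate 2. Hnrnpdl kept its call without control replicate 2 or 3 or PTZ+Q808 replicate 2 or 4.

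**Figure D5:**
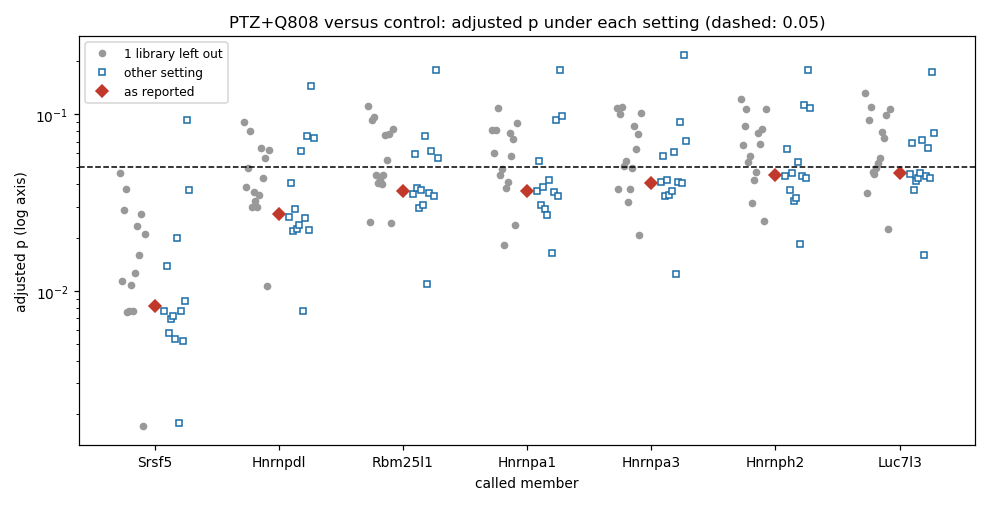
Adjusted p of the 7 called members in PTZ+Q808 against control under the alternatives, on a log axis with the threshold of 0.05 drawn. Points are fits with 1 library left out or another setting, and Srsf5 crosses the threshold only without the 3 libraries low in Ttr.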

How the data were processed

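Total RNA of hippocampus was captured on mRNA beads and read on a BGI T7 sequencer, per the labels' protocols. The authors deposited FPKM per gene and library. HISAT2, Bowtie2, SAMtools, StringTie, Cufflinks, HTSeq, DESeq and Trimmomatic are named without roles or versions, per the submitters' processing notes, and the genome build and strand setting are not given in the sources used here. Without counts, no counting interval is given.

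FPKM values were transformed as log2(FPKM + 1), which understates changes of low genes. Genes with at least 1 FPKM in at least 4 of 14 libraries (12744) were fitted with limma 3.58.1 in R 4.3.3 (files read with data.table version 1.17.8), using a prior variance that follows the mean, on 11 residual degrees of freedom. Tests were two-sided, and p-values were Benjamini-Hochberg adjusted per comparison over all 12744 genes. Python 3.11.15, pandas 2.3.3, numpy 2.4.6 and matplotlib 3.10.9 were used for summaries and figures, and the fit was tested on simulated data.

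Members and lists were chosen with earlier results of these data known, and some genes with matching names and 1 marker are not reported here. Named genes were called members, per family the most abundant and the 2 with the smallest p, per list up to 4 called genes or the 1 with the smallest p, and the 3 genes nearest the level on each side. Rbm39, Hnrnph1, Hnrnpab in PTZ+Q808 against control and members named for groups that did not overlap were chosen after their values were seen. Alternatives were a pseudocount of 0.1, no filter, a minimum of 5 FPKM, 3 other scalings, a fit of 2 groups, array weights, a robust prior, a replicate block, a term for Y-linked transcripts, and leaving out libraries.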

Additional observations from a re-analysis of the deposited data

Results flagged for a closer look

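Over the members and the named genes there were 324 sets of 1 gene in 1 group. Of these, 16 held a library far from the others of its group by Dixon's criterion. Chance gives about 1 in 20, so the count is near what chance gives. PTZ replicate 2 was lowest for Prpf3 (4.92 FPKM, others 5.18 to 5.24) and highest for Rbm25l1 (5.18, others 4.30 to 4.51) and Rbm26 (7.13, others 5.85 to 6.18). PTZ replicate 4 was highest for Hnrnpab (19.3, others 5.40 to 9.13), Srsf2 (47.3, others 41.0 to 42.8) and Rsrp1 (84.4, others 56.6 to 60.2). PTZ replicate 5 was highest for Hnrnpc (17.9, others 5.74 to 8.43) and PTZ replicate 1 for Rbm28 (7.46, others 6.36 to 6.65).

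In PTZ+Q808, replicate 2 was highest for Hnrnpc (13.5 FPKM, others 6.35 to 8.09) and for Sf3b5 (72.5, others 56.7 to 60.5). Replicate 4, the lowest of its group for the 7 called members, was lowest for Rbm11 (3.14, others 3.60 to 3.78) and highest for Rbm5 (29.4, others 23.1 to 24.6). Replicate 1 was lowest for Sf3b6 (20.5, others 22.2 to 22.9), and replicate 3, which held pituitary transcripts, was highest for Srsf9 (9.92, others 8.86 to 9.15). Control replicate 2, which held striatal transcripts, was lowest for Celf4 (74.2, others 81.4 to 82.0) and highest for U2surp (8.01, others 6.99 to 7.15). The cause of these values was not tested.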

How the results depend on the processing

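Counts of called members were 0 in PTZ against control and in PTZ+Q808 against PTZ under all 27 alternatives. The median log2 changes of the 83 members moved by less than the spread between libraries (0.035). That spread exceeds the medians in PTZ against control (0.030) and PTZ+Q808 against PTZ (0.010). The median in PTZ+Q808 against PTZ changed sign, to -0.0066, with an equal total per library. The 7 calls of PTZ+Q808 against control became 2 with no filter, 2 with only the 2 groups compared, 16 with array weights (14 higher, 2 lower), 1 with the replicate number as a block, 0 without the 3 libraries low in Ttr and 1 without control replicate 2 and PTZ+Q808 replicate 3 together. Leaving out each library in turn gave 1 to 10. The cause was not tested. Fits that leave libraries out also hold fewer samples. Shares of all genes called under these alternatives are not given beside the counts. Whether the members moved apart from other genes cannot be read from them. The replicate numbers did not pair the libraries: correlations of same-numbered libraries ran from -0.28 to 0.14.

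Over the 97 gene results named, 2436 values under alternatives kept their direction and side of the threshold, 147 lost a call, 15 gained one and 19 changed sign. Many of these results were of uncalled genes, which had no call to lose. Of 27 alternatives, the call of Srsf5 in PTZ+Q808 against control held in 26 and that of Hnrnpdl in 18. Those of Rbm25l1 and Hnrnpa1 held in 15 each, Hnrnpa3 and Luc7l3 in 13 each and Hnrnph2 in 12. Sign changes occurred in uncalled genes near 0. In PTZ against control, Prpf19 was at -0.017 with array weights, -0.0054 with the replicate block and -0.069 without control replicate 2 and PTZ+Q808 replicate 3 together, and ran from -0.069 to 0.051 with 1 library left out. Sf3b2 was at 0.0068 with median-of-ratios scaling and 0.0094 with an equal total per library, and ran from -0.016 to 0.0047 with 1 library left out. Snhg11, a nuclear noncoding RNA, ran from -0.022 to 0.11 with 1 library left out. In PTZ+Q808 against PTZ, Sf3b2 was at -0.0035 with array weights and from -0.0090 to 0.039 with 1 library left out, and Snhg11 from -0.0086 to 0.16. In PTZ+Q808 against control, Sf3b2 was at -0.0054 with quantile normalization, -0.0045 with array weights and from -0.015 to 0.033 with 1 library left out.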
